A study of Mus musculus with 6 samples.

Results

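Genes of the mitochondrial ribosome were examined in mouse tumor organoids in which Prkci, which encodes an atypical protein kinase C, had been targeted. The set holds every gene of the deposited expression matrix whose symbol starts with Mrpl or Mrps and a number, with pseudogenes left out, and comes to 77 of 20756 genes: 48 Mrpl and 29 Mrps genes. A further gene of this naming, Mrpl53, was not analysed here. The organoids came from an intestinal tumor that had spread to the liver (strain C57BL/6, tissue label small intestine), were grown in basement-membrane extract with EGF and were harvested untreated 72 h after plating. The 3 control libraries carried the control guide (sgScr, spelled sgScbr in the genotype label and described as WT), and the 3 others a guide against Prkci (sgPrkci, described as PKClambdaKO). RNA was read by 3' tag sequencing, which counts reads from the 3' ends of polyadenylated transcripts. The labels used here do not state the alleles of the starting tumor, the guide's position or the number of clones behind each population. The series calls the libraries biological replicates without saying how the cultures differed. The p-values below thus set the difference between the groups against the spread between libraries only. The guide cannot be told apart from other differences between the 2 organoid populations.

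Mitochondria carry their own ribosome, which translates the few mRNAs of the mitochondrial genome, all of them for subunits of the respiratory chain and the ATP synthase. Its ribosomal RNAs are made inside the organelle, but all of its proteins are encoded in the nucleus, translated in the cytosol and imported, so the nuclear supply has to be matched to the mitochondrial one. Some of these proteins have counterparts in bacterial ribosomes and others were added in the mitochondrial lineage. Dividing epithelial and tumor cells need them to build respiratory complexes, and inherited defects in many of them cause mitochondrial disease in humans.

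Depth was 2141125 to 3048170 reads per library, and the 77 genes took 5473 to 10609 of these. The values are CPM, reads per gene after every library is brought to an equal total. A transcript gives a 3' tag whatever its length, so CPM was not divided by length. The log2 change of a gene is its mean log2(CPM + 1) in sgPrkci less that in sgScr, a scale that understates low genes. Values with ± are means and SD over the 3 libraries of a group, and positions are those of GENCODE M21 on GRCm38. Genes at 1 CPM or more in at least 3 of 6 libraries were tested with limma, with p-values adjusted over all 12195 genes tested and a threshold of 0.05. The words rose and fell are used only of genes past it. Prkci itself was at 46.6, 54.5 and 63.8 CPM in the sgScr libraries and at 53.9, 56.5 and 46.9 CPM in the sgPrkci libraries (log2 change -0.06, SE 0.13, adjusted p = 0.77); since the guide's position is unknown, this tag does not check the edit. Of 7 tested epithelial and intestinal markers 2 rose and 2 fell, so they moved with the group. Epcam rose from 551 ± 14.7 to 771 ± 63.9 CPM and Vil1 from 55.5 ± 3.28 to 93.2 ± 14.1 CPM (adjusted p = 1.1e-05 and 1.8e-05). Krt18 fell from 591 ± 12.8 to 461 ± 10.3 CPM and the intestinal transcription factor gene Cdx2 from 25.8 ± 1.97 to 12.5 ± 2.43 CPM (adjusted p = 0.00033 and 8.9e-05), Krt18 not with the median of its chromosome removed (adjusted p = 0.959). Krt8, Krt19 and Cdh1 did not pass, and Cdx1 had a single read in a single library. With the median of each chromosome removed, Krt8, Krt19 and Cdh1 passed as higher (log2 change 0.57, 0.425 and 0.468, adjusted p = 3.57e-06, 8.51e-05 and 0.00191). Krt8 and Cdh1 also passed as higher with edgeR and with TMM or median-of-ratios scaling of the libraries. Of 12 markers of hepatocytes, immune cells, endothelium, fibroblasts and muscle, 9 were in the table, and their summed level was 2.30 to 17.1 CPM in sgScr and 0.934 to 2.64 CPM in sgPrkci, most of it Apoa1 in sgScr (16.1, 1.64 and 5.67 CPM). Apoa1 fell (log2 change -2.05, adjusted p = 0.012), but not with a pseudocount of 5 CPM, with plain moderation of the variances or without sgPrkci replicate 2. Pecam1, Cdh5 and Ttr were at 0 in all 6 libraries, and Alb had a single read in a single library. Which cells the Apoa1 reads came from, hepatocytes or the organoid epithelium itself, was not tested. The part of these markers in the results below was not tested. In bulk RNA, fewer cells of a type and less RNA per cell cannot be told apart.

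Many genes of the mitochondrial ribosome were lower in sgPrkci organoids. Of the 75 members that passed the filter on low values, 36 fell, 0 rose and 39 did not pass. Across all tested genes 20.5% were called lower and 11.4% higher. Of the members, 48 were lower and 0 higher at an unadjusted p under 0.05. The median log2 change of the members was -0.38, against -0.11 for all tested genes, so that they lay -0.28 from the general shift. Of the 75 members, 71 had a negative log2 change and 68 lay below the median of all genes. The changes were moderate: the interquartile range ran from -0.61 to -0.20, and 1 member moved by 2-fold or more. The 3 sgPrkci libraries lay below all 3 sgScr libraries for 45 of the 75 members, where this held for 27.1% of all tested genes, and the opposite held for 0 members, against 15.9% of all genes. The edgeR quasi-likelihood test on the recovered reads called 31 members lower and 1 higher, and DESeq2 20 lower and 0 higher. The member called higher with edgeR, and with 2 other scalings of the libraries, was Mrpl33. With those tools 14.7% and 9.17% of all genes were called lower.

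**Figure D1:**
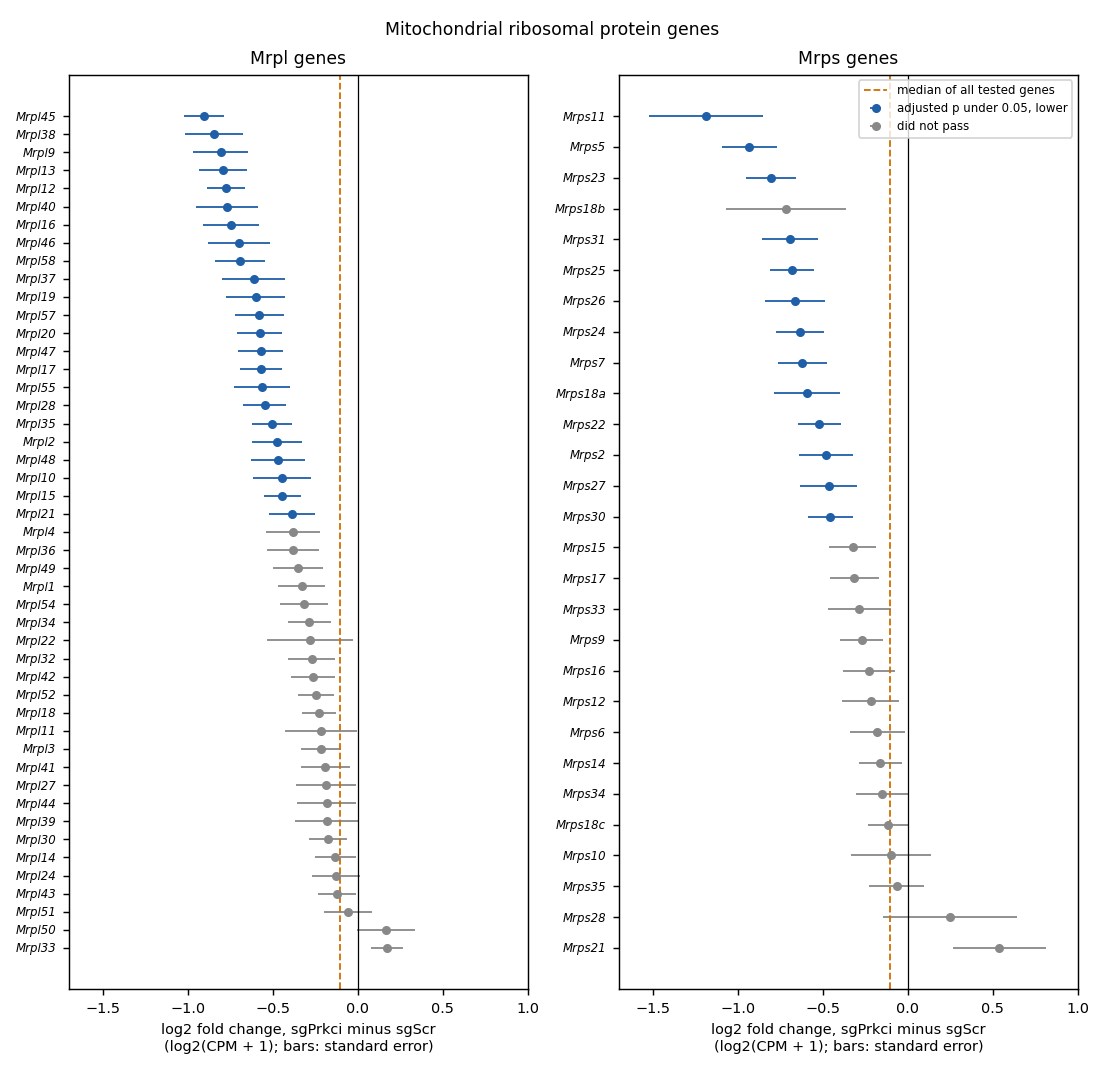
Log2 fold change of each of the 75 tested members on the log2(CPM + 1) scale with its standard error, Mrpl genes on the left and Mrps genes on the right, ordered by value. Blue points fell (36 genes), grey points did not pass (39), and the dashed line is the median of all tested genes at -0.11; 71 points lie left of 0.

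The summed level of the 77 genes was 3242, 3480 and 3220 CPM in sgScr replicates 1 to 3 and 2552, 2556 and 2525 CPM in sgPrkci replicates 1 to 3. All sgPrkci libraries were thus below all sgScr libraries, and the group mean was 23.2% lower. Transcripts of the mitochondrial genome took 11.7 to 12.9% of the reads in sgScr and 13.3 to 13.9% in sgPrkci, so they too moved with the group. With them and the ribosomal RNA overlapping gene Gm42418 left out of the totals, 35 members fell.

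Genes of both subunits fell. Of the 47 tested Mrpl genes 23 fell, with a median log2 change of -0.38, and of the 28 tested Mrps genes 13 fell, with a median of -0.39. The symbols do not follow the subunits exactly, since the proteins of Mrps18a and Mrps30 sit in the large subunit of mammalian mitoribosomes. Among large subunit proteins with a bacterial counterpart 15 of 29 genes fell, and among those specific to mitochondria 10 of 20. Among small subunit proteins 5 of 17 with a bacterial counterpart fell (median -0.27) and 6 of 9 specific to mitochondria (median -0.52). Differences between these classes were not tested. The summed level of the 4 classes was lower in sgPrkci by 21.8%, 24.75%, 21.2% and 30.1% in that order, and in each class the libraries of the groups did not overlap. Mrps36, which is now regarded as a component of a dehydrogenase complex, was left out of the classes. Mrps36 (at most 1.34 CPM) and Mrpl23 (at most 1.06 CPM) were the 2 members that did not reach the filter.

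**Figure D2:**
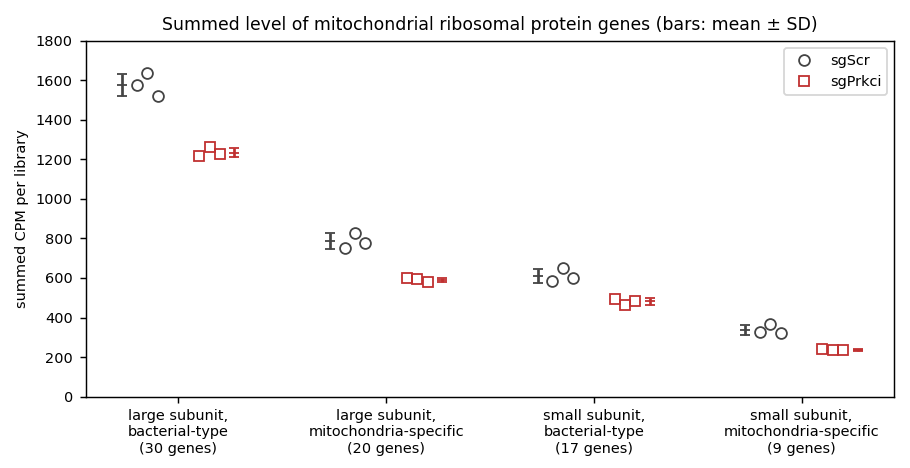
Summed CPM per library of the member genes in 4 classes, with mean ± SD beside the 3 points of each group. In each class the 3 sgPrkci libraries lie below the 3 sgScr libraries, from 1578 ± 56.4 to 1234 ± 23.5 CPM for the 30 large subunit genes of bacterial type.

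In the large subunit the most negative log2 change was that of Mrpl45 (ENSMUSG00000018882, chromosome 11, 97315716 to 97329920), whose protein holds the ribosome to the inner membrane at the exit of the nascent chain. It was at 80.1, 81.4 and 76.9 CPM in sgScr and at 47.1, 39.7 and 39.4 CPM in sgPrkci. The groups were well apart, and the mean was 47.0% lower in sgPrkci (log2 change -0.91, SE 0.12, adjusted p = 7e-07). With the median of each chromosome removed from its genes, it was -0.51 (adjusted p = 0.00126). In that setting many other large subunit members were further from 0, among them Mrpl9 (-0.77), Mrpl16 (-0.77), Mrpl40 (-0.71), Mrpl37 and Mrpl15. Mrpl12 (chromosome 11, 120484613 to 120489065), which encodes the stalk protein that recruits translation factors, was at 91.2, 83.7 and 85.8 CPM in sgScr and 51.3, 52.3 and 47.2 CPM in sgPrkci. Again all 3 sgPrkci libraries were lower, with little spread within a group (log2 change -0.78, SE 0.11, adjusted p = 3.1e-06). Mrpl38 (chromosome 11, 116131817 to 116138868) and Mrpl40 (chromosome 16, 18872018 to 18876862) encode proteins of the central protuberance, a part of the large subunit that in mitochondria is largely built of added proteins. Mrpl38 was at 27.8, 35.4 and 36.1 CPM in sgScr and 14.7, 19.1 and 20.2 CPM in sgPrkci (log2 change -0.85, SE 0.17, adjusted p = 0.00026). Mrpl40 was at 32.5, 41 and 29.1 CPM in sgScr and 20, 25.7 and 14.2 CPM in sgPrkci (log2 change -0.77, SE 0.18, adjusted p = 0.0017). The libraries of Mrpl40 were scattered in both groups but did not overlap, and its call ended with plain moderation of the variances (adjusted p = 0.0531). Mrpl9 (chromosome 3, 94443318 to 94451130), the counterpart of bacterial L9, was at 37.9, 35.8 and 33.3 CPM in sgScr and 17, 24.8 and 18.8 CPM in sgPrkci (log2 change -0.81, SE 0.16, adjusted p = 0.00028). Mrpl13 (chromosome 15, 55534094 to 55557748), the counterpart of bacterial L13, was at 51, 57.1 and 55.3 CPM in sgScr and 32.4, 25.2 and 36.2 CPM in sgPrkci (log2 change -0.79, SE 0.14, adjusted p = 6.1e-05). For both genes the lowest sgScr library was above the highest sgPrkci library. With chromosome medians removed Mrpl12 was at -0.38 (adjusted p = 0.00888), Mrpl38 at -0.45 (adjusted p = 0.0407) and Mrpl13 at -0.43 (adjusted p = 0.0197).

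In the small subunit the deepest fall above a mean of 5 CPM was that of Mrps5 (chromosome 2, 127587222 to 127606829), the counterpart of bacterial S5, which lines the path of the mRNA. It was at 55.6, 63.3 and 61.7 CPM in sgScr and at 36.2, 21.5 and 38.4 CPM in sgPrkci. The second sgPrkci library, the shallowest of the series, was the lowest, and the groups did not overlap (log2 change -0.93, SE 0.16, adjusted p = 8.2e-05). Mrps23 (chromosome 11, 88204388 to 88211507), which has no bacterial counterpart, was at 40.9, 44.9 and 37.9 CPM in sgScr and 20.7, 22.4 and 26.6 CPM in sgPrkci (log2 change -0.80, SE 0.15, adjusted p = 0.00011). All its sgPrkci libraries were below all its sgScr libraries, and with chromosome medians removed it was at -0.41 (adjusted p = 0.0348).

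**Figure D3:**
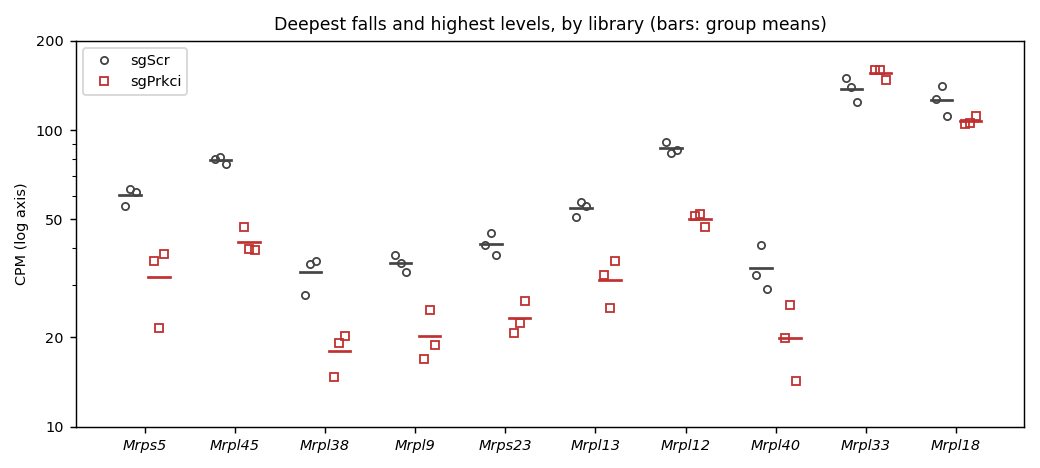
CPM on a log axis in each of the 6 libraries for the 8 members with the deepest falls at a mean of at least 5 CPM and for the 2 members of highest mean level. Horizontal bars are group means; the groups are apart for the first 8 genes, as for Mrpl45 (79.5 against 42.1 CPM), and overlap for Mrpl33.

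A low gene, Mrps11, had the most negative log2 change of all members and was named after its values were seen. It encodes the counterpart of bacterial S11 and lies on chromosome 7 (78783119 to 78792989) head to head with another member, Mrpl46 (78775236 to 78783531, the opposite strand), whose protein belongs to the central protuberance. The exons of the 2 genes share 173 bases at their starts. Mrps11 had 8, 24 and 19 reads in sgScr and 3, 4 and 7 reads in sgPrkci, or 2.68, 7.87 and 6.73 CPM against 1.13, 1.87 and 2.49 CPM. The first sgScr library was close to the sgPrkci libraries (log2 change -1.19, SE 0.34, adjusted p = 0.007), and without sgScr replicate 2 the gene did not pass (log2 change -0.94, adjusted p = 0.081). It did not pass with DESeq2 (-1.54, adjusted p = 0.0608) or plain moderation (adjusted p = 0.0509) either, and a filter at 5 CPM removed it. Mrpl46 was at 19.4, 25.3 and 21.6 CPM in sgScr and 14.7, 12.1 and 12.8 CPM in sgPrkci. Its groups were apart, and it fell (log2 change -0.70, SE 0.18, adjusted p = 0.0038), though not with DESeq2 (adjusted p = 0.0703).

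Since members moved together, their promoter windows were searched for short motifs, chosen after the expression values were seen. RefSeq windows on GRCm38.p6 from 250 bases before to 50 bases after a start site were found for 68 of 77 members, 74 windows in all. The motif of nuclear respiratory factor 1 (NRF1), an activator of nuclear genes for mitochondria, was present on either strand in 17.6% of the member windows and in 4.60% of all 32851 windows. The motif CCGGAAGT of ETS family factors was present in 16.2% against 3.89%, and its shorter core CGGAAG, which every match of the longer motif holds, in 52.7% against 16.9%. The motif AAGATGGC of YY1 was present in 16.2% against 2.75%. The windows of all genes were not matched to those of the members in base content or expression level. Whether these shares are particular to the members was not tested. Shares were closer for CCAAT, in 39.2% against 37.4%, for CACGTG, in 9.46% against 7.15% and for the E2F motif TTTCCCGC, in 1.35% against 1.07%. The amino acid response motif TGATGCAA (0.895% of all windows), its looser form TGATGNAA (3.97%) and the antioxidant response motif TGACTCAGC (0.454%) were in 0 of the 74 member windows.

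Whether members with a motif fell more often than those without was not tested. Of 13 tested members with the NRF1 motif 6 fell, and of the 53 without it 26 fell. With the YY1 motif 7 of 12 fell, and without it 25 of 54. With the ETS motif CCGGAAGT 4 of 12 fell, and without it 28 of 54. The 120 bases before the start site are shown for the 2 members of chromosome 11 with the lowest adjusted p, for Mrps5 of the small subunit and for Mrps11 of the head-to-head pair, 5′ to 3′ in the direction of the gene, with matches to the NRF1, ETS or YY1 motifs in capitals.
Mrpl45 (chr11:97315596-97315715, plus strand): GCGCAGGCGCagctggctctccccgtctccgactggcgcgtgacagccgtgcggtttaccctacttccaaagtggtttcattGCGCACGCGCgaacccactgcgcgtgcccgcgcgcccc
Mrpl12 (chr11:120484517-120484636, plus strand): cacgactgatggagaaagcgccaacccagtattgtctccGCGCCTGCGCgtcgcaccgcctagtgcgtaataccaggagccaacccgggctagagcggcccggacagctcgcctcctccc
Mrps5 (chr2:127587306-127587425, plus strand): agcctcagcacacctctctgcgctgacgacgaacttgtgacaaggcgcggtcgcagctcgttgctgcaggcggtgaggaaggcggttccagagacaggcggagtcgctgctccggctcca
Mrps11 (chr7:78783011-78783130, plus strand): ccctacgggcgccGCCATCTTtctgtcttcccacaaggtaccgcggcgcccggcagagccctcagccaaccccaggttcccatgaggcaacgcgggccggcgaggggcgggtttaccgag
The stretch of Mrpl45 holds 2 NRF1 matches and that of Mrpl12 holds 1. The stretch of Mrps11 holds a YY1 match on the reverse strand. It shares 41 bases with the 120 bases before the start of Mrpl46 on the other strand. That of Mrps5 holds none of the 3 in these bases. The start sites used here are those of RefSeq. By the GENCODE positions given above, the stretch of Mrps5 lies wholly inside the gene, and those of Mrpl12 and Mrps11 end inside theirs. A match is a description of the letters and not a measured binding site.

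The 3 Mrps18 genes encode related proteins that take different places in the mitoribosome, Mrps18a in the large subunit and Mrps18b and Mrps18c in the small one. Mrps18a (chromosome 17) was at 25.5, 24.3 and 16.7 CPM in sgScr and 12.1, 16.4 and 14.2 CPM in sgPrkci (log2 change -0.59, SE 0.19, adjusted p = 0.018). The last of its sgScr libraries was near the sgPrkci libraries, and its call ended when sgScr replicate 1, sgScr replicate 2 and sgPrkci replicate 1 were each left out (adjusted p = 0.0812, 0.1 and 0.0915). It also ended with median-of-ratios scaling (adjusted p = 0.0503), quantile scaling (0.0847), plain moderation (0.069) and DESeq2 (0.149). Mrps18c (chromosome 5) was at 59.7, 72.5 and 70.5 CPM in sgScr and 63.7, 56.5 and 66.4 CPM in sgPrkci, with overlapping groups (log2 change -0.12, SE 0.12, adjusted p = 0.49). Mrps18b (chromosome 17) had only 5, 7 and 8 reads in sgScr and 4, 1 and 3 reads in sgPrkci. It did not pass, and its value rests on these few reads (log2 change -0.72, SE 0.35, adjusted p = 0.12). Differences between the 3 genes were not tested.

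The members of highest level did not pass. Mrpl33 (chromosome 5), the counterpart of bacterial L33, was at 150, 139 and 124 CPM in sgScr and 159, 159 and 148 CPM in sgPrkci (log2 change 0.17, SE 0.09, adjusted p = 0.18). It passed as higher with TMM scaling (log2 change 0.27, adjusted p = 0.0281), median-of-ratios scaling (0.27, adjusted p = 0.0282) and edgeR (0.27, adjusted p = 0.032). Mrpl18 (chromosome 17), the counterpart of bacterial L18, was at 127, 141 and 111 CPM in sgScr and 105, 106 and 111 CPM in sgPrkci (log2 change -0.23, SE 0.10, adjusted p = 0.084). Its sgPrkci libraries were close together just under the lowest sgScr library, and it passed without sgScr replicate 3 (log2 change -0.32, adjusted p = 0.0256). The members had a median level of 33.5 CPM, and 67 of 77 lay between 10 and 100 CPM. Of the 38 members above the median level 17 fell, and of the 37 tested members at or below it 19 fell.

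The other 25 members that fell had log2 changes from -0.75 for Mrpl16 to -0.39 for Mrpl21. From the large subunit these were also Mrpl37, Mrpl19, Mrpl57, Mrpl20, Mrpl47, Mrpl17, Mrpl55, Mrpl28, Mrpl35, Mrpl2, Mrpl48, Mrpl10, Mrpl15, Mrps30 and Mrpl58, the last encoding a hydrolase that frees stalled ribosomes (log2 change -0.69). From the small subunit they were Mrps31, Mrps25, Mrps26, Mrps24, Mrps7, Mrps22, Mrps2 and Mrps27. Mrps22, a gene of inherited mitochondrial disease in humans, fell from 75.8 ± 11.7 to 52.4 ± 6.01 CPM (log2 change -0.52, SE 0.13, adjusted p = 0.0018). Mrpl28, the counterpart of bacterial L28, had very little spread, with 52.3, 51.5 and 51.4 CPM in sgScr and 35.8, 34.6 and 34.8 CPM in sgPrkci (log2 change -0.55, SE 0.13, adjusted p = 0.0012). Mrpl10, a partner of Mrpl12 in the stalk, was the only called member whose groups overlapped (28.7 to 39 CPM in sgScr, 18.5 to 31.3 CPM in sgPrkci, adjusted p = 0.048). The calls of 10 of the 36 members ended when some single library was left out. Without sgScr replicate 2 those of Mrpl2, Mrpl10, Mrpl21, Mrpl48, Mrps2, Mrps11, Mrps18a and Mrps27 ended (adjusted p = 0.0617 to 0.251). Without sgPrkci replicate 1 those of Mrpl2, Mrpl10, Mrpl21, Mrpl55, Mrps18a and Mrps27 ended (adjusted p = 0.0508 to 0.295). Without sgPrkci replicate 3 those of Mrpl10, Mrpl21, Mrpl37, Mrpl48, Mrps2 and Mrps27 ended (adjusted p = 0.0565 to 0.109). The remaining losses were Mrpl10, Mrps18a and Mrps27 without sgScr replicate 1, Mrpl48 and Mrps2 without sgPrkci replicate 2, and Mrpl48 without sgScr replicate 3 (adjusted p = 0.0519 to 0.15). In return, 12 members that did not pass with 6 libraries were called lower when a single library was left out, among them Mrpl36, Mrps15 and Mrpl1.

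Of the 39 members that did not pass, 4 had a positive log2 change: Mrpl33, Mrpl50, Mrps28 and Mrps21. Mrps21, at 3.02, 7.22 and 4.61 CPM in sgScr and 6.79, 8.41 and 6.75 CPM in sgPrkci, had the largest value (0.54, SE 0.28, adjusted p = 0.14). Mrps28 was at 4.69 to 9.21 CPM in sgScr and at 7.17, 18.7 and 4.97 CPM in sgPrkci, where the second library alone was high. Mrpl50 was at 19.1, 29.5 and 30.8 CPM in sgScr and 29, 31.8 and 27 CPM in sgPrkci, with overlapping groups. Members close to 0 were Mrps35, Mrpl51, Mrps10, Mrps18c, Mrpl43, Mrpl24 and Mrpl14, at log2 changes of -0.06 to -0.13, near the general shift.

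Because the labels do not state the strand setting of the counting, reads of genes whose 3' ends overlap cannot be told apart. In 10 members an exon of another gene overlapped the last 500 bases, and 5 of these fell (Mrps25, Mrps7, Mrpl10, Mrpl12 and Mrpl19). The 3' end of Mrps25 lies entirely within an exon of Nr2c2 on the opposite strand. In Mrpl12 the overlap came to 17 bases. Of the 65 tested members without such an overlap 31 fell.

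The tested members lie on 17 chromosomes. Relative to the median of all genes, the tested genes above a mean of 10 CPM had a median of -0.29 on chromosome 11, -0.26 on chromosome 15 and -0.17 on chromosome 8, so the chromosome itself moves with the result. Chromosomes 8, 11 and 15 held 14 members (18.2%, against 16.9% of all tested genes), and 11 of the 14 fell (Mrpl45, Mrpl38, Mrps23, Mrpl12, Mrpl58, Mrps24, Mrps7, Mrpl55 and Mrpl10 on chromosome 11, Mrpl13 on chromosome 15 and Mrps31 on chromosome 8). Their median log2 change was -0.66. Of all tested genes on these chromosomes 40.6% fell. On the other chromosomes 25 of 61 tested members fell, with a median of -0.32, where 16.4% of all tested genes fell. Of the 75 tested members, 69 lay below the median of their own chromosome. On chromosome 1, where the median of all genes was highest (0.18), each of the 5 members was below 0.

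With the median of each chromosome removed from its genes, 31 members fell, where 13.3% of all genes were called lower. Of these, 5 lay on chromosomes 8, 11 and 15 and 26 on the others, and 27 were among the 36 called without that step. The median log2 change of the members was -0.34 in this setting, against -0.02 for all genes. It ended the calls of Mrpl58 (adjusted p = 0.128), Mrps24 (0.213), Mrps7 (0.251), Mrpl55 (0.483), Mrpl10 (0.872) and Mrps31 (0.0545), and also those of Mrps2, Mrpl48 and Mrps27 (0.0635 to 0.112). Mrpl30, Mrps9, Mrps14 and Mrps15 were lower at the threshold only then or without a single library. Whether the number of chromosome copies differed was not tested.

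**Figure D4:**
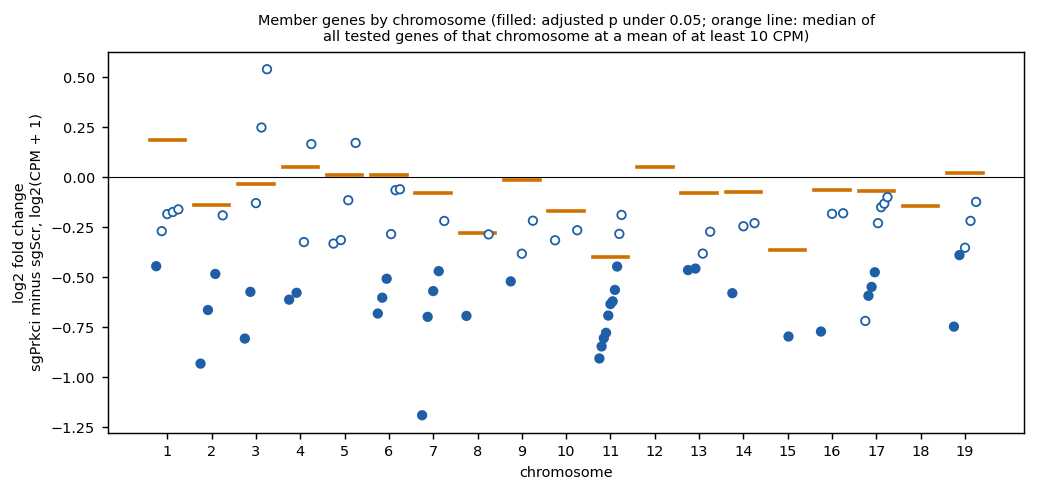
Log2 fold change of the 75 tested members by chromosome, filled where they fell. The orange line is the median of all tested genes of that chromosome above a mean of 10 CPM; 69 of 75 members lie below their line; on chromosome 11, where the line itself is at -0.40, 9 of 11 do, and Mrpl22 (-0.28) and Mrpl27 (-0.19) lie above it.

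The mitoribosome has further proteins whose genes lack the Mrp symbol, and 5 were looked at. All 5 fell, where 20.5% of all tested genes did: Gadd45gip1, Dap3, Aurkaip1, Ptcd3 and Chchd1. Gadd45gip1 (chromosome 8), a protein at the exit of the nascent chain, was at 58.3, 54.8 and 53.2 CPM in sgScr and 29.8, 33.6 and 31.2 CPM in sgPrkci (log2 change -0.79, SE 0.13, adjusted p = 2e-05; -0.51 with chromosome medians removed, adjusted p = 0.00271). Dap3 (chromosome 3), the GTP-binding protein of the small subunit, was at 90.5, 92.8 and 97.5 CPM in sgScr and 80.3, 65.8 and 64.6 CPM in sgPrkci (log2 change -0.41, SE 0.11, adjusted p = 0.0044). In both genes the groups were apart, as they were in the other 3. Aurkaip1 went from 66.7 ± 1.52 to 50.9 ± 2.44 CPM (adjusted p = 0.011), Ptcd3, an RNA-binding protein at the entry of the mRNA, from 24.2 ± 2.86 to 16 ± 4.66 CPM (adjusted p = 0.018) and Chchd1 from 119 ± 3.98 to 95.7 ± 14.7 CPM (adjusted p = 0.019). The call of Ptcd3 ended without sgScr replicate 2 or sgPrkci replicate 1 (adjusted p = 0.0887 and 0.174), and that of Chchd1 when sgScr replicate 3, sgPrkci replicate 2 and sgPrkci replicate 3 were each left out (adjusted p = 0.0576, 0.0626 and 0.136). With TMM scaling, median-of-ratios scaling and edgeR 3 of the 5 passed, with plain moderation 2 and with DESeq2 1.

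Of 13 tested genes for factors that work with the mitoribosome in translation 4 fell (30.8%, against 20.5% of all tested genes). Mtif2 (chromosome 11), the initiation factor, was at 70.7, 80 and 69.8 CPM in sgScr and 47.5, 44.4 and 37.3 CPM in sgPrkci (log2 change -0.76, SE 0.12, adjusted p = 1.8e-05; -0.37 with chromosome medians removed, adjusted p = 0.0229). Tsfm, which recharges the elongation factor, fell from 37.4 ± 7.95 to 22.2 ± 1.87 CPM (adjusted p = 0.001). The release factor genes Mtrf1 and Mtrf1l fell by 0.91 and 0.59 on the log2 scale. The call of Mtrf1l ended without sgScr replicate 2 or sgPrkci replicate 1 (adjusted p = 0.0627 and 0.0985) and with chromosome medians removed (adjusted p = 0.085). The elongation factor gene Tufm, at 5.36 to 8.2 CPM in sgScr and 4.15 to 5.33 CPM in sgPrkci, did not pass (log2 change -0.53, adjusted p = 0.12). DESeq2 called 2 of the 4, where it called 9.17% of all tested genes lower.

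Among all tested genes 20.5% fell and 11.4% rose. Of 26 genes for assembly of the mitoribosome and modification of its RNA 9 fell (34.6%) and 1 rose (3.85%). The list had a median log2 change of -0.50. Those with the lowest p were Ngrn, from 51.5 ± 3.03 to 34.9 ± 3.20 CPM, Mpv17l2, from 30.1 ± 2.13 to 18.7 ± 2.16 CPM, and Rcc1l, from 12.9 ± 0.483 to 6.77 ± 0.718 CPM (adjusted p = 0.0016, 0.0021 and 0.0036). Afg3l2, a matrix protease that processes the protein of Mrpl32, rose from 70.3 ± 1.31 to 90.6 ± 2.27 CPM (log2 change 0.36, SE 0.10, adjusted p = 0.0082), while Mrpl32 itself was at 35.2 to 45.6 CPM in sgScr and 32.2 to 35.9 CPM in sgPrkci (adjusted p = 0.14). The count of 9 became 4 with quantile scaling, 5 with chromosome medians removed, where Mpv17l2 on chromosome 8 did not pass (adjusted p = 0.0725), and 2 with DESeq2. Of 18 genes of mitochondrial RNA synthesis and processing 6 fell (33.3%) and 1 rose (5.56%). Elac2 (chromosome 11), which trims the 3' ends of tRNAs, fell from 20.9 ± 3.75 to 8.97 ± 0.414 CPM (log2 change -1.12, SE 0.20, adjusted p = 5.8e-05; -0.72 with chromosome medians removed, adjusted p = 0.00488), and Pnpt1 (chromosome 11), an RNA-degrading enzyme, from 27.7 ± 2.02 to 16.2 ± 3.11 CPM (adjusted p = 0.0012; 0.117 with chromosome medians removed). Grsf1, an RNA-binding protein of mitochondrial RNA granules, rose from 153 ± 2.14 to 189 ± 13.4 CPM (adjusted p = 0.011), and Fastkd3 fell from 13.1 ± 3.61 to 7.12 ± 1.53 CPM (adjusted p = 0.012). Without sgPrkci replicate 1 Grsf1 did not pass (adjusted p = 0.0751), and without sgScr replicate 2 Fastkd3 did not (adjusted p = 0.118). The count of 6 became 2 without sgScr replicate 2 and with DESeq2. It was 3 with chromosome medians removed, with edgeR, with plain moderation and with each of the 3 other scalings (TMM, median-of-ratios and quantile). Of all tested genes 13.3% were called lower with chromosome medians removed, 14.7% with edgeR, 14.9% with TMM scaling and 9.17% with DESeq2.

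The mitochondrial genome encodes the RNAs that the mitoribosome is built on or translates. Of the 12 of its transcripts looked at, 9 passed the filter on low values. The transcript mt-Co2 was at 0 in all 6 libraries, mt-Atp6 had 2 reads in a single library, and mt-Nd3 was at most at 0.934 CPM. Why these had so few reads was not tested, so the 9 do not cover the whole mitochondrial genome. Of the 9 tested transcripts 0 fell (0 at an unadjusted p under 0.05, and 0 with edgeR and DESeq2) and 3 rose. These shares were 0% and 33.3%, against 20.5% and 11.4% of all tested genes, and the median log2 change was 0.18. The small ribosomal RNA mt-Rnr1 was at 32920, 27360 and 28070 CPM in sgScr and 32190, 33300 and 33780 CPM in sgPrkci, so that its first sgScr library lay among the sgPrkci libraries (log2 change 0.17, SE 0.06, adjusted p = 0.028). The large ribosomal RNA mt-Rnr2 did not pass (0.13 on the log2 scale, adjusted p = 0.059). The cytochrome b transcript mt-Cytb rose from 2711 ± 59.5 to 3517 ± 426 CPM (adjusted p = 0.00017). Its groups were apart, while those of mt-Nd5, which rose by 0.28 on the log2 scale, overlapped. The number that rose was 0 with plain moderation, 5 with no filter, 6 with TMM or median-of-ratios scaling and with DESeq2, and 8 with edgeR. It was also 6 with these genes and Gm42418 out of the totals, and in the setting with chromosome medians removed. In that last setting the mitochondrial genome had too few genes for a median of its own. The median of all genes (-0.11) was removed from its transcripts instead. The number that rose was 1 without sgScr replicate 2, sgScr replicate 3, sgPrkci replicate 1 or sgPrkci replicate 2, 5 without sgScr replicate 1 and 7 without sgPrkci replicate 3. How far the 3' tags of these transcripts follow the amount of ribosomal RNA was not tested.

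Genes of the cytosolic ribosome, which translates all nuclear mRNAs, were taken by symbol. These were Rpl or Rps and a number, the Rplp genes and Rpsa, with pseudogenes and kinase genes left out. The list of 89 genes was not checked further, so genes of like name from outside the ribosome may be in it. Of its 84 tested genes 18 fell (21.4%) and 5 rose (5.95%). Among all tested genes 20.5% fell, close to that share, and 11.4% rose. The cytosolic genes had a median log2 change of -0.05. Their summed level was 4.81% lower in sgPrkci, against 23.2% for the mitochondrial set. Of the 84 genes, 5 fell with chromosome medians removed, 5 with plain moderation and 8 with DESeq2. The number that rose was 11 with TMM or median-of-ratios scaling, 9 with edgeR and 1 with plain moderation. Of all tested genes 13.3% fell with chromosome medians removed and 9.17% with DESeq2, and 15.7% rose with TMM scaling and 15.9% with edgeR. The difference between the 2 ribosomes was not tested.

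**Figure D5:**
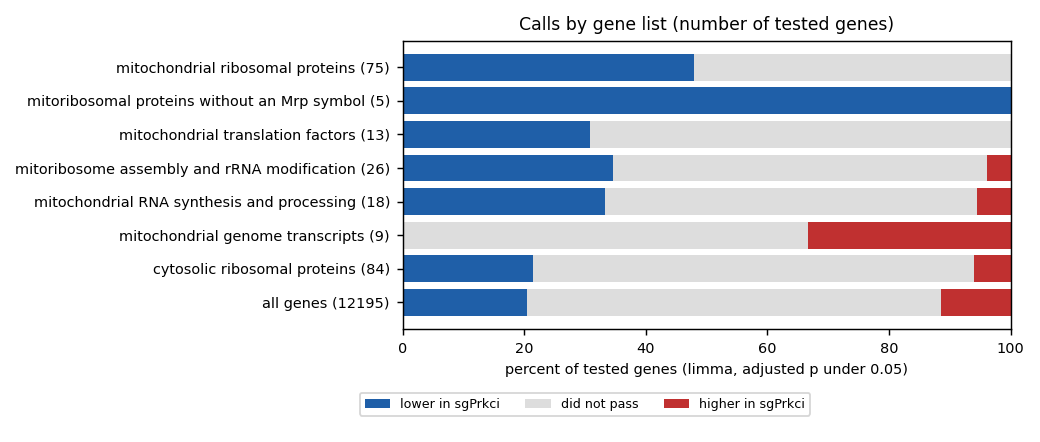
Share of tested genes called lower (blue), called higher (red) or not passed (grey) by limma in the members and in related lists, with the number of tested genes in brackets. Of the members 48% are lower and 0 higher, against 20.5% and 11.4% of all 12195 genes.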

How the data were processed

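The authors' deposited table gives CPM per gene for 6 libraries of 3' tag sequencing (QuantSeq 3' FWD with optional molecular identifiers, from 200 ng of RNA, sequenced single-end, per the labels' protocols). The submitters' processing notes name GRCm38. The aligner, counter, strand setting and handling of molecular identifiers are not stated in the labels, so how reads shared with the 4 listed Mrp pseudogenes, or with other copies, were counted is unknown. Columns had equal sums, and 100% of 124536 values were whole multiples of 1 read (tolerance 1e-06), so whole reads were recovered. Columns left unmapped numbered 0. Symbols and positions came from GENCODE M21, with no entry for 81 of 20756 genes. Replicate numbers follow accession order and pair nothing.

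The main test was limma 3.58.1 (R 4.3.3) on log2(CPM + 1), trend and robust, two-sided, for genes at 1 CPM or more in 3 libraries, adjusted by Benjamini-Hochberg over 12195 genes. It was also run on simulated reads with the same dispersion for all genes and changes only in genes at 5 CPM or more. Those reads had no general shift and no shift of a chromosome, so that run does not check the calls made here. Alternatives were pseudocounts of 0.25 and 5, no filter or 5 CPM, scaling by TMM, median of ratios or quantiles, plain moderation, other totals, chromosome medians removed (from genes above a mean of 10 CPM, with 50 or more on a chromosome), each library left out, and edgeR 4.0.16 and DESeq2 1.42.0 on the recovered reads, where edgeR called 1798 genes lower and 1941 higher. In the chromosome setting, genes of chromosomes with fewer than 50 such genes had the median of all genes removed instead. A read was 0.328 to 0.467 CPM, and 3 reads 0.984 to 1.40 CPM. Library values were given for the 8 called members with the deepest falls and up to 6 with the largest rises, all above a mean of 5 CPM, the 2 highest members, the Mrps18 genes and 5 mitoribosomal genes without an Mrp symbol, and for related lists up to 4 called genes with the lowest p. Others are named beside counts, after their values were seen. Members, lists and rules were chosen with earlier results of these data known.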

Additional observations from a re-analysis of the deposited data

How the results depend on the processing

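In all 18 alternatives to the main fit more members were lower than higher, and 15 members were called lower in each of them: Mrps5, Mrpl45, Mrpl38, Mrpl9, Mrps23, Mrpl13, Mrpl12, Mrpl16, Mrps25, Mrpl20, Mrpl47, Mrpl17, Mrpl28, Mrps22 and Mrpl35. The count of 36 members lower was 20 with DESeq2, and it ran from 28 to 40 when single libraries were left out. The count of members higher was 1 with TMM scaling, 1 with median-of-ratios scaling and 1 with edgeR, Mrpl33 each time, and 0 with each library left out. The median log2 fold change of the members, -0.38, was -0.28 with TMM, median-of-ratios and quantile scaling, where that of all genes was -0.02, -0.01 and -0.01, and -0.30 with edgeR and DESeq2, where it was -0.02. It ran from -0.44 to -0.34 with single libraries left out. The cause of the lower DESeq2 count was not tested. Prkci, which did not pass in any setting, turned to a log2 fold change of 0.042 with TMM, 0.043 with median-of-ratios, 0.0058 with quantile scaling, 0.032 with edgeR, and 0.034 with DESeq2. With single libraries left out it ran from -0.17 to 0.052, and it was 0.018 without sgPrkci replicate 3. Members under a mean of 5 CPM rest on few reads: Mrps11 fell, Mrps18b did not pass, and Mrpl23 and Mrps36 did not reach the filter. How small a change could be detected at that level was not tested. No paired analysis was possible because the labels give the groups no shared replicate numbers.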
